A study of Mus musculus with 12 samples.

Results

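The genes described here are 9 that osteoclasts use to dissolve bone: Ctsk, Acp5, Car2, Slc4a2, Slc9b2, Clcn7, Ostm1, Plekhm1 and Snx10. They were chosen for their known parts in acid secretion, matrix digestion and lysosome traffic, by matching gene symbols to the Ensembl identifiers of the deposited table. All 9 matched, out of 46072 genes in the table. RNA sequencing compared osteoclasts, the multinucleated cells that resorb bone, with immature dendritic cells and with bone marrow macrophages, all grown from the marrow of C57BL/6J mice that were 6 to 8 weeks old. Each cell type has 4 libraries, 12 in all, and the labels' protocols state that 1 mouse supplied the 3 cell types of each experiment, over 4 marrow extractions.

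Osteoclast cultures received RANKL at 50 ng/ml on top of M-CSF at 30 ng/ml, and were treated with Accutase at the end to take off cells with a single nucleus. Dendritic cell cultures received 20 ng/ml GM-CSF. Macrophage cultures received 30 ng/ml M-CSF with no RANKL. Osteoclast and macrophage precursors shared an expansion of 5 days in 100 ng/ml M-CSF, which the labels give for these cultures only, and differentiation lasted 8 to 10 days in all of them. The osteoclast cultures were the only ones with the Accutase step, so RANKL and that step cannot be told apart in their comparisons. Against dendritic cells, M-CSF, GM-CSF and the stated expansion differ as well and cannot be told apart from these. The cells are primary cultures named by their growth factors, and no sorting step is given in the labels.

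An osteoclast seals off a patch of bone and pushes lysosomes into the membrane that faces it, which folds into the ruffled border. Protons made by carbonic anhydrase II leave through the vacuolar proton pump, chloride follows through the ClC-7 exchanger with its partner OSTM1, and the bicarbonate left behind exits on the other side of the cell through an anion exchanger. Acid dissolves the mineral, and lysosomal enzymes led by cathepsin K digest the collagen. Loss of several of these genes gives dense, poorly resorbed bone (osteopetrosis) in humans or mice.

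For each gene the files give the authors' mean normalised count of a cell type and pairwise fold changes with p-values; the means carry no spread. Called genes are those below 0.05 in the authors' adjusted p, and ± after a fold change is a standard error worked back from the authors' p-value. The authors' means sum to 2.42e+07 in osteoclasts, 2.77e+07 in dendritic cells and 2.50e+07 in macrophages by the authors' deposited table. For low means the 4 libraries behind them could be solved as whole reads, which gave 9 of the 27 gene and cell type pairs of these genes. Those libraries are called a to d within a cell type and cannot be tied to the labelled replicates. Tests on them therefore take no account of the mouse shared between cell types. Set against macrophages, markers fitted the labels. Of osteoclast markers 8 of 8 were called higher in osteoclasts than in macrophages by the authors' deposited table. Of dendritic cell markers 8 of 8 were called higher in dendritic cells than in macrophages by the authors' deposited table. Against dendritic cells 5 of 8 osteoclast markers were called higher in osteoclasts and 3 were not called. Those 3, Atp6v0d2, Dcstamp and Ocstamp, had higher authors' means in dendritic cells than in osteoclasts. Atp6v0d2 had 17755.5 in osteoclasts and 20465.5 in dendritic cells by the authors' deposited table. The dendritic cell cultures held other signals too, with 7 of 8 neutrophil markers called higher there than in macrophages. Neutrophil markers summed to 77.6 in osteoclasts, 14582 in dendritic cells and 92.0 in macrophages, and mast cell and basophil markers to 12.5, 801 and 8.03 in the same order, by the authors' deposited table. In bulk cultures such as these, fewer cells of a type and less RNA per cell cannot be told apart.

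Start site windows from RefSeq (GRCm38.p6), 250 bases before to 50 after the start, were read for these genes. A window was found for 8 of the 9, with 14 start sites among them. Ctsk and Slc9b2 have a single window each and are shown because they were among the genes that differed most between cell types. Of 3 windows of Acp5 and 2 of Clcn7, those printed were picked because they hold a motif, CATGTG for Acp5 and a repeated CACGTG for Clcn7. Sequences run 5′ to 3′ on the strand of the gene, and capitals mark CACGTG, the core bound by TFEB and TFE3 at lysosomal genes, and CATGTG or its reverse complement CACATG, the core of the site bound by MITF.
Ctsk chr3:95498960-95499259, plus strand: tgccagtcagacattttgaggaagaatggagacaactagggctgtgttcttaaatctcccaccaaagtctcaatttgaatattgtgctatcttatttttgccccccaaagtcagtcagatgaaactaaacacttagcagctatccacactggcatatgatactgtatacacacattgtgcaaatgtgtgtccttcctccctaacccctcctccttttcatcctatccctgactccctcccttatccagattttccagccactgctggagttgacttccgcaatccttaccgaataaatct
Acp5 chr9:22130549-22130848, minus strand: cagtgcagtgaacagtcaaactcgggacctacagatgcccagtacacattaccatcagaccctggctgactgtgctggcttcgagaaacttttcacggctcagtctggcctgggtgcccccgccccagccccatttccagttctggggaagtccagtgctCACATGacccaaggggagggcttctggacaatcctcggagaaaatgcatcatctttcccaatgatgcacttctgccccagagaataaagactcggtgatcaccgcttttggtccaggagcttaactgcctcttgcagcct
Slc9b2 chr3:135307450-135307749, plus strand: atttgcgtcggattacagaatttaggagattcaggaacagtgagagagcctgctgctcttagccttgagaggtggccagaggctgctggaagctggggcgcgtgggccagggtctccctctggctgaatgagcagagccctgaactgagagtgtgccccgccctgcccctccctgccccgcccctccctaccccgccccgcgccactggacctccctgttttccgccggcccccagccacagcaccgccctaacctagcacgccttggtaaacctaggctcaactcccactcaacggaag
Clcn7 chr17:25133141-25133440, plus strand: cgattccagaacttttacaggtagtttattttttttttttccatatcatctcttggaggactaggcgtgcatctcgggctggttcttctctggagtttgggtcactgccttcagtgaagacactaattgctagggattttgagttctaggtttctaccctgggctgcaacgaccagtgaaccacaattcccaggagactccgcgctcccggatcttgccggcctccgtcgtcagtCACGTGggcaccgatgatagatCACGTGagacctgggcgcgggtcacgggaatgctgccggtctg

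The printed Clcn7 window holds CACGTG at 2 places, beginning 15 bases before and 7 bases after its start, and the other Clcn7 window holds CATGTG and no CACGTG. The printed Acp5 window holds the MITF core beginning 90 bases before its start, and the other 2 Acp5 windows hold neither motif. The Ctsk and Slc9b2 windows hold neither motif. Searched on both strands, CACGTG was in 1 of the 14 windows of these genes and in 7.15% of 32851 windows of all genes, and CATGTG in 2 of 14 and in 14.2%. These 2 motifs cannot occupy the same bases. The AP-1 motif TGANTCA, in which N is any base, was in 1 window, of Snx10, and in 7.81% of all. The NFAT core GGAAA was in 10 of 14 and in 61.3% of all, and the PU.1 core GAGGAA, which can overlap it, in 4 of 14 and in 28.3%. For each of the motifs the share among these genes was near that of all genes. The matches describe letters in these windows and say nothing of binding.

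The secreted enzymes showed the largest differences between osteoclasts and macrophages. Ctsk (chromosome 3, 95499256 to 95509362 in GRCm38, plus strand) encodes cathepsin K, the collagen-digesting protease of the resorption space. Its authors' mean was 87805.5 in osteoclasts, 1472 in dendritic cells and 137 in macrophages by the authors' deposited table. The 4 dendritic cell libraries held 1494, 1581, 1716 and 1097 normalised reads of Ctsk, and the 4 macrophage libraries 132, 140, 131 and 146. Every dendritic cell library lay above every macrophage library (exact permutation test on log2(reads + 1), two-sided, p = 0.0286, the smallest that 4 against 4 libraries allow; 0.0357 adjusted over 5 such comparisons). Ctsk was higher in osteoclasts by 9.20 on the log2 scale over macrophages, with a p listed as 0, and by 5.83 ± 0.23 over dendritic cells by the authors' deposited table. Over macrophages this was the 2nd highest fold change of 17822 genes with an adjusted p by the authors' deposited table. Dendritic cells exceeded macrophages by 3.37 ± 0.24 (authors' adjusted p = 4.54e-43), the sign turned round from the authors' deposited table.

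Acp5 (chromosome 9, 22126727 to 22135711, minus strand) encodes tartrate-resistant acid phosphatase, the enzyme stained to count osteoclasts. Its authors' mean reached 84237 in osteoclasts, 4934 in dendritic cells and 238 in macrophages by the authors' deposited table. The macrophage libraries held 173, 299.95, 279 and 200.5 normalised reads, and the other cell types lay above the range that could be solved. Its fold changes were 8.36 ± 0.25 (log2) in osteoclasts over macrophages, the 7th of 17822 genes, and 4.04 ± 0.24 over dendritic cells, by the authors' deposited table. Dendritic cells were above macrophages by 4.31 ± 0.25, sign turned round from the authors' deposited table. Both enzymes were thus highest in osteoclasts and lowest in macrophages, with each step called. In osteoclasts they ranked 15th and 16th of all genes by authors' mean, and together made up 82.5% of the summed means of the 9 genes, against 27.2% in dendritic cells and 1.92% in macrophages, computed from the authors' deposited table. All 9 together took 0.860% of the summed means in osteoclasts, 0.0848% in dendritic cells and 0.0780% in macrophages.

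**Figure D1:**
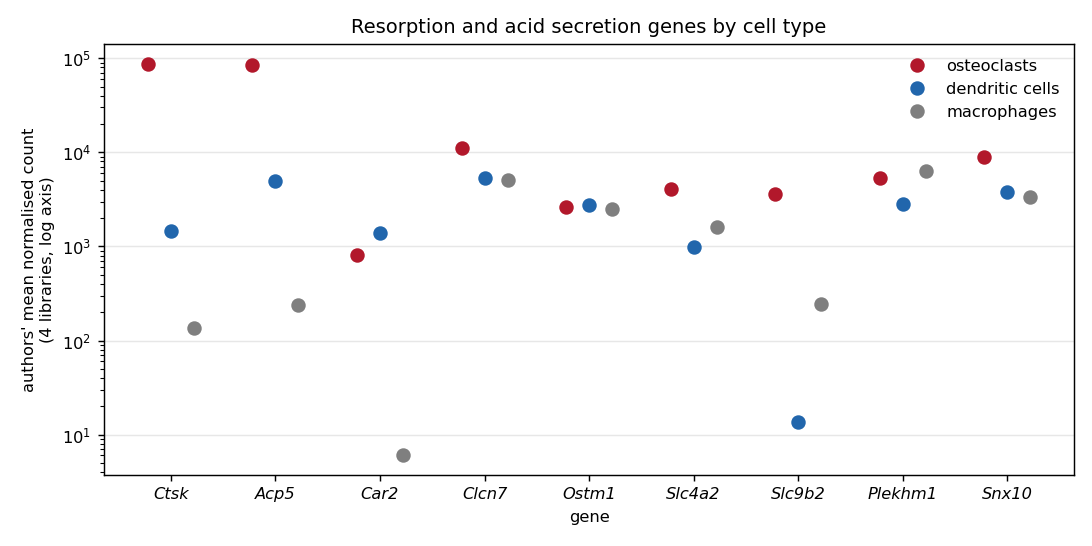
Authors' mean normalised count (log axis, mean of 4 libraries) of the 9 genes, one point per cell type: osteoclasts red, dendritic cells blue, macrophages grey. Ctsk at 87805.5 and Acp5 at 84237 stand highest in osteoclasts, Car2 is highest in dendritic cells at 1403, and the 3 points of Ostm1 lie between 2514 and 2740.

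Among the acid and base handling genes, Car2 and Slc9b2 differed most, and in different cell types. Car2 (chromosome 3, 14886273 to 14900770, plus strand) encodes carbonic anhydrase II, which makes protons and bicarbonate from carbon dioxide and water. Its authors' mean was 818 in osteoclasts, 1403 in dendritic cells and 6.04 in macrophages by the authors' deposited table. The osteoclast libraries held 700.3, 679, 1318 and 575 normalised reads, the dendritic cell libraries 997, 1721, 1284 and 1609, and the macrophage libraries 11.5, 6.82, 5.85 and 0. Osteoclast library c stood apart from the other 3, and the macrophage libraries held 25 reads in all. Osteoclasts and dendritic cells each lay wholly above macrophages (exact permutation test, two-sided, p = 0.0286 for each, 0.0357 adjusted over 5 comparisons), and the log2 fold changes were 6.76 ± 0.40 and 7.52 ± 0.40, the second with its sign turned round from the authors' deposited table.

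Between osteoclasts and dendritic cells Car2 was lower by a small margin. The log2 fold change was -0.76 ± 0.32 with an authors' adjusted p of 0.0435 by the authors' deposited table. The call was lost in 4 alternative settings of adjustment, threshold or scaling, and over all settings tried the adjusted p ran from 0.0277 to 0.145. At the level of libraries, 3 of 4 osteoclast libraries lay below every dendritic cell library and library c lay inside their range (exact permutation test, two-sided, p = 0.0857, also 0.0857 adjusted over the 5 comparisons). Without library c the osteoclast mean was 651 ± 66.7 (SD, n = 3) and dendritic cells were 2.15-fold higher, against 1.72-fold with it (exact permutation test, two-sided, p = 0.0571, the smallest that 3 against 4 libraries allow). Library c was the lowest of the 4 for the solved dendritic cell markers, 321 normalised reads where the other osteoclast libraries had 370 to 817, and for neutrophil markers, 63.1 where they had 67.5 to 106. It was the highest for the solved chloride channel genes, 922 normalised reads where the others had 608 to 643, and for the solved anion exchangers, 1134 where the others had 743 to 838. These lists are named because library c was lowest or highest in them, and not all lists showed this. Of the 321 for dendritic cell markers in library c, 227 were reads of H2-Ab1. The other solved carbonic anhydrases held 409 in library c and 358 to 394 in the others. Solved sodium proton exchangers were highest in library d, at 1335, with 1023 in library c. The part of any of these lists in the Car2 value was not tested. Of the 8 osteoclast markers, 4 were called higher in dendritic cells than in macrophages and 4, Oscar, Itgb3, Nfatc1 and Calcr, were not called. Of the higher ones Dcstamp, needed for cell fusion, averaged 4231 in osteoclasts, 7666 in dendritic cells and 148 in macrophages by the authors' deposited table. Macrophage libraries a to d differed in Dcstamp, with 149, 35.1, 384 and 24.6 normalised reads. The related Ocstamp averaged 1589 in osteoclasts, 2583 in dendritic cells and 14.4 in macrophages by the authors' deposited table. Calcr, the calcitonin receptor of mature osteoclasts, was at 755 in osteoclasts, 1.02 in dendritic cells and 0.244 in macrophages by the authors' deposited table.

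Slc9b2 (chromosome 3, 135307700 to 135345387, plus strand) encodes the sodium proton exchanger NHA2. Its authors' mean came to 3635 in osteoclasts, 13.5 in dendritic cells and 244 in macrophages by the authors' deposited table. The dendritic cell libraries held 16.3, 10.2, 14.3 and 13.3 normalised reads, 53 whole reads in all, and the macrophage libraries 203, 227, 333 and 212. All 4 dendritic cell libraries lay below all 4 macrophage libraries (exact permutation test, two-sided, p = 0.0286, 0.0357 adjusted over 5 comparisons). Osteoclasts exceeded macrophages by 3.84 ± 0.26 (log2) and dendritic cells by 7.89 ± 0.32, the 8th highest of 21217 genes, by the authors' deposited table. Dendritic cells were below macrophages by -4.05 ± 0.32, sign turned round from the authors' deposited table. Slc9b2 was thus lowest in dendritic cells, where Car2 had its highest mean.

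Slc4a2 (chromosome 5, 24423837 to 24440950, plus strand) encodes the anion exchanger AE2, which releases bicarbonate in exchange for chloride. It followed the order of Slc9b2 with smaller steps, at 4082 in osteoclasts, 994 in dendritic cells and 1601 in macrophages by the authors' deposited table. The dendritic cell libraries held 1332, 849, 801 and 993 normalised reads, and the macrophage mean had 3 solutions and is not split. The log2 fold changes were 1.34 ± 0.18 over macrophages and 2.02 ± 0.18 over dendritic cells, and dendritic cells against macrophages stood at -0.68 ± 0.18 (authors' adjusted p = 7.44e-04), the last with its sign turned round from the authors' deposited table. Fastk, a gene on the other strand that overlaps Slc4a2 in the annotation, was itself higher in osteoclasts than in macrophages by 0.71 (log2) by the authors' deposited table. Neither labels nor headers state whether counting used strand, so reads in the overlap cannot be assigned.

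**Figure D2:**
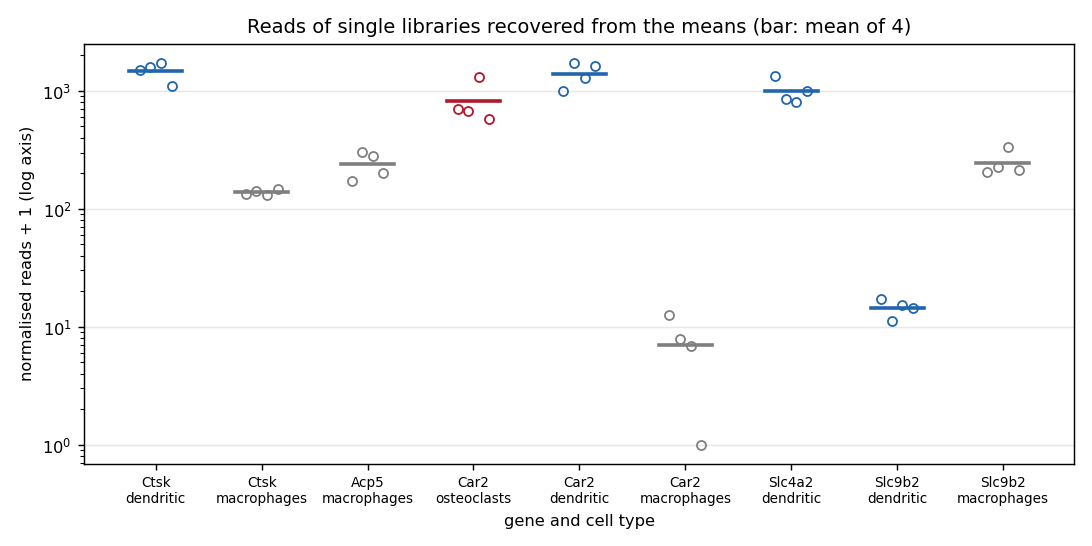
Normalised reads + 1 per library (log axis) for the 9 gene and cell type pairs whose 4 libraries could be solved, osteoclasts red, dendritic cells blue, macrophages grey; each circle is a library and each bar the mean of 4. Osteoclast library c of Car2 lies at 1318, above the other 3 at 575 to 700.3, and the dendritic cell circles of Slc9b2 lie between 10.2 and 16.3.

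The chloride exchanger was higher in osteoclasts and its partner was not called in any comparison, although the difference between the pair was not tested. Clcn7 (chromosome 17, 25133391 to 25162104, plus strand) encodes ClC-7, the chloride proton exchanger of lysosomes and of the ruffled border. Its authors' mean was 11071 in osteoclasts, 5401 in dendritic cells and 5111 in macrophages by the authors' deposited table. It was higher in osteoclasts by 1.11 ± 0.15 (log2) over macrophages and by 1.03 ± 0.15 over dendritic cells by the authors' deposited table. Dendritic cells against macrophages gave 0.08 ± 0.16 with an authors' adjusted p of 0.757, sign turned round from the authors' deposited table. Ostm1 (chromosome 10, 42583822 to 42702459, plus strand), the partner that ClC-7 needs to be stable, had authors' means of 2611 in osteoclasts, 2739.6 in dendritic cells and 2514 in macrophages by the authors' deposited table. None of its comparisons was called: 0.05 ± 0.10 for osteoclasts over macrophages, -0.07 ± 0.10 over dendritic cells, and 0.12 ± 0.10 for dendritic cells over macrophages, with authors' adjusted p of 0.764, 0.667 and 0.395, the last sign turned round from the authors' deposited table. Per length, levels of different genes can be set side by side. TPM is the authors' mean divided by exon length and scaled to an equal sum in each cell type. Clcn7 stood at 277 TPM in osteoclasts, 109 in dendritic cells and 126 in macrophages. Ostm1 stood at 47.9, 40.4 and 45.6 in the same order. On this rescaled measure dendritic cells lay below macrophages for both genes, while by the authors' means they lay above. Neither gene was called between those cell types.

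The vesicle traffic genes differed from each other as well. Snx10 (chromosome 6, 51523901 to 51590679, plus strand), a sorting nexin of endosomes, had authors' means of 8929 in osteoclasts, 3758 in dendritic cells and 3394 in macrophages by the authors' deposited table. It was higher in osteoclasts by 1.39 ± 0.17 (log2) over macrophages and by 1.24 ± 0.17 over dendritic cells, by the authors' deposited table. Dendritic cells against macrophages were not called, at 0.15 ± 0.17 with an authors' adjusted p of 0.579, sign turned round from the authors' deposited table. Plekhm1 (chromosome 11, 103364275 to 103412687, minus strand), an adaptor of the small GTPase RAB7 in lysosome fusion, had authors' means of 5309 in osteoclasts, 2812 in dendritic cells and 6277 in macrophages by the authors' deposited table. Osteoclasts exceeded dendritic cells by 0.91 ± 0.18 (authors' adjusted p = 3.05e-06), while osteoclasts against macrophages gave -0.24 ± 0.18 (authors' adjusted p = 0.348), by the authors' deposited table. Dendritic cells were lower than macrophages by -1.15 ± 0.18, sign turned round from the authors' deposited table. Plekhm1 was the only one of the 9 with its highest authors' mean in macrophages, although the step to osteoclasts was not called.

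**Figure D3:**
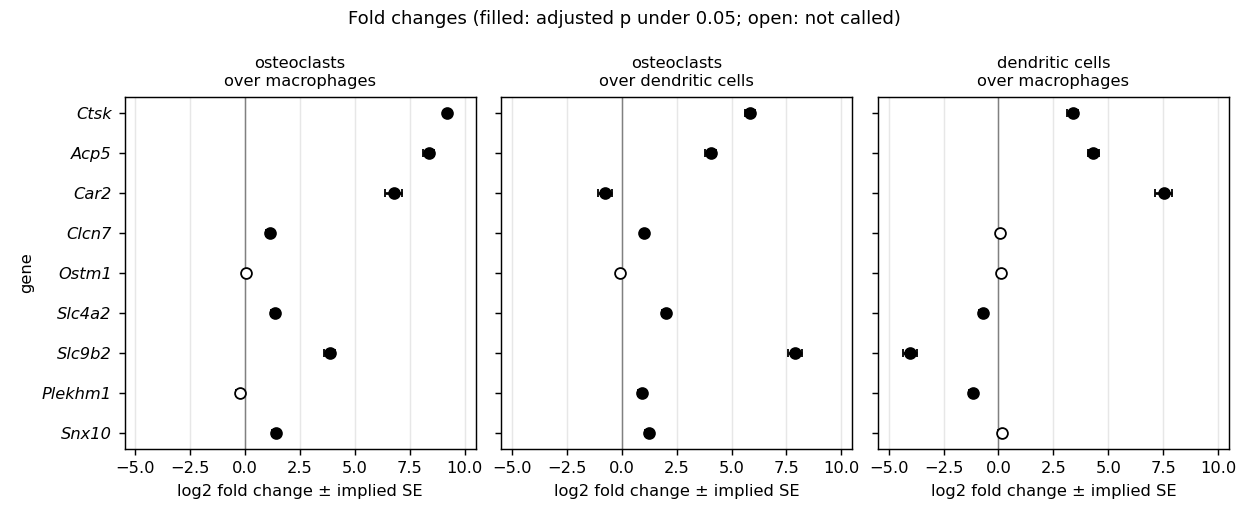
Log2 fold change of each gene in 3 comparisons, osteoclasts over macrophages, osteoclasts over dendritic cells and dendritic cells over macrophages, with the implied standard error as a bar; filled points are called, open points are not, and Ctsk over macrophages has no bar because its p is listed as 0. The values run from 9.20 for Ctsk in the first panel to -4.05 for Slc9b2 in the third, and Ostm1 is open in all 3.

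Counted together, 7 of the 9 genes were called higher and 0 lower in osteoclasts than in macrophages, where 29.3% of 17822 genes were called (14.5% higher, 14.7% lower), by the authors' deposited table. The 2 not called were Ostm1 and Plekhm1. The median log2 fold change of the 9 was 1.39, against -0.03 over all genes tested, by the authors' deposited table. Against dendritic cells 7 were called higher and 1, Car2, lower, where 36.9% of 21217 genes were called (16.8% higher, 20.1% lower), with a median of 1.24 against -0.05 over all genes by the authors' deposited table. Between dendritic cells and macrophages the 9 split evenly, with 3 higher (Ctsk, Acp5, Car2), 3 lower (Slc4a2, Slc9b2, Plekhm1) and 3 not called, where 36.7% of 20730 genes were called (20.3% higher, 16.4% lower), with a median of 0.12 against 0.05 over all genes, signs turned round from the authors' deposited table. The 3 comparisons share cell types and are not independent of each other. The balance over all genes depended on scaling: 45.4% of calls were higher in osteoclasts than in dendritic cells, or 61.4% once the summed means were set equal, and 55.4% were higher in dendritic cells than in macrophages, or 42.8%. That scaling adds 0.19 (log2) to each fold change of osteoclasts over dendritic cells and takes 0.15 from each of dendritic cells over macrophages.

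Of the 9 genes, 7 were set beside the other members of their gene families, while Ostm1 and Plekhm1 were not placed in one. On the same TPM scale, Ctsk was 2nd of 14 cathepsins in osteoclasts with 19.5% of their summed level, 9th in dendritic cells with 0.361% and 12th in macrophages with 0.0243%. Ctsd, the aspartic protease cathepsin D, led in each cell type, with 15976, 11726 and 29610 TPM in osteoclasts, dendritic cells and macrophages. Acp5 made up 95.0% of the level of 6 acid phosphatases in osteoclasts, 68.4% in dendritic cells and 5.49% in macrophages, where the lysosomal Acp2 led with 209 TPM. Slc9b2 made up 40.5% of 11 sodium proton exchangers in osteoclasts, 0.288% in dendritic cells and 2.88% in macrophages. The leading exchanger was Slc9b2 in osteoclasts with 87.4 TPM and Slc9a9 of endosomes in macrophages with 85.4.

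Car2 took 31.6% of 16 carbonic anhydrases in osteoclasts, 11% in dendritic cells and 0.372% in macrophages. The cytosolic Car13 led in osteoclasts with 58.2 TPM, ahead of Car2 with 44.7, but with the length of the longest transcript in place of all exons Car2 came 1st. Car4, an anhydrase anchored on the outer membrane, led in dendritic cells with 434 TPM. Clcn7 led the 9 CLC genes everywhere, with 80.3% in osteoclasts, 63.6% in dendritic cells and 60.8% in macrophages. Slc4a2 held a steady share of 10 bicarbonate transporters of the Slc4 family, 45.4%, 41.6% and 45.5% in the same order, and was 2nd to Slc4a7, a sodium bicarbonate cotransporter, in each. Snx10 was 5th of 30 sorting nexins in osteoclasts with 5.14%, 13th in dendritic cells with 1.89% and 17th in macrophages with 1.48%. With the length of the longest transcript Snx10 was 5th, 12th and 13th in the same order. No error can be given for these shares.

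**Figure D4:**
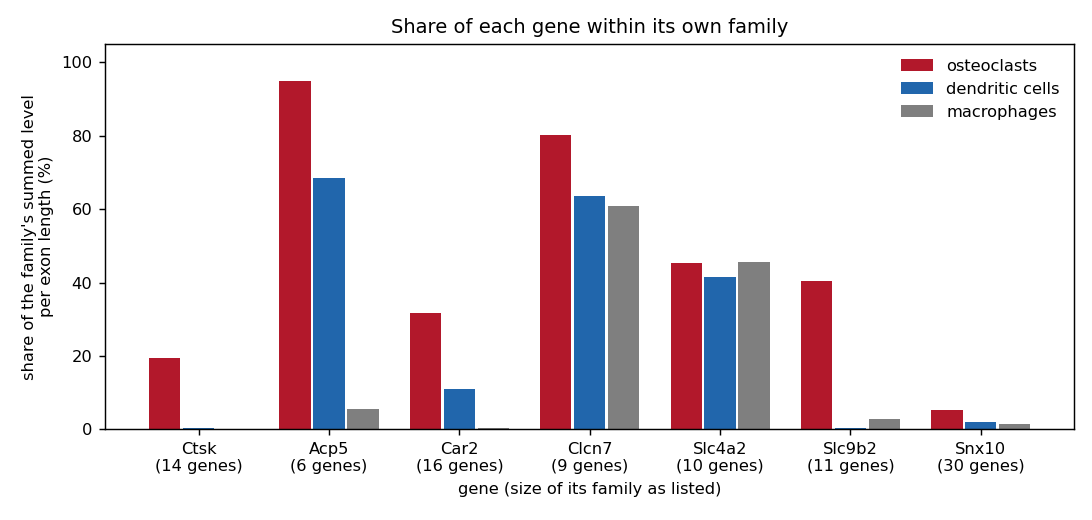
Share (%) of each gene in the summed level per exon length of its family, in osteoclasts (red), dendritic cells (blue) and macrophages (grey), computed from the authors' means; the number of genes in each family stands under the name. Acp5 takes 95.0% of the acid phosphatases in osteoclasts and 5.49% in macrophages, while Slc4a2 lies between 41.6% and 45.5% in all 3.

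Relatives and partners of the 9 genes were counted in the same way. The shares to read these counts against are those of all genes, 14.5% higher and 14.7% lower in osteoclasts than in macrophages, and 16.8% higher and 20.1% lower than in dendritic cells. Of 18 cathepsins and inhibitors tested, 2 were higher and 5 lower in osteoclasts than in macrophages, with a median of -0.46 (log2), by the authors' deposited table; the count of higher genes is near the share of all genes. Cstb, the inhibitor cystatin B, was higher by 0.91 ± 0.09, and the cathepsins Ctsb and Ctsh fell by 0.98 and 1.66 in osteoclasts relative to macrophages by the authors' deposited table. Against dendritic cells 6 of 20 were higher in osteoclasts, with Ctsl at 1.26 ± 0.15, and 11 lower, with Ctsh at -3.46 ± 0.21, by the authors' deposited table. The inhibitors Stfa2 and Stfa3, stefins also found in neutrophils, were at 1.01 and 0.248 in osteoclasts, 187 and 115 in dendritic cells, and 0.243 and 0 in macrophages, by the authors' deposited table. Of 13 other carbonic anhydrases none was called higher in osteoclasts than in macrophages and 1, Car11, was lower, by the authors' deposited table. Car4 had 7.74 in osteoclasts, 8008 in dendritic cells and 7.06 in macrophages by the authors' deposited table.

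Of the other acid phosphatases 2 of 4 tested were higher in osteoclasts than in macrophages, Acp1 by 0.44 ± 0.13 and Acp4 by 0.95 ± 0.32, and 0 were lower, by the authors' deposited table. Against dendritic cells 3 of 4 were higher in osteoclasts, Acp1 by 0.36 ± 0.13, Acp2 by 1.26 ± 0.13 and Acp6 by 0.80 ± 0.12, and Acp4 was lower at -1.42 ± 0.26, by the authors' deposited table. Over macrophages Acp2 at 0.05 and Acp6 at -0.14 were not called. Acp4 had low authors' means, 23.0 in osteoclasts and 11.7 in macrophages, by the authors' deposited table. In these 2 comparisons most acid phosphatase calls, at smaller fold changes, thus had the direction of Acp5. In dendritic cells over macrophages Acp4 shared its direction at 2.37, with the authors' signs turned round. Acp2 at -1.21 and Acp6 at -0.94 were called lower there. Among 10 CLC and CLIC genes, 2 were higher and 1 lower over macrophages by the authors' deposited table, near the shares of all genes. Clic5, a chloride intracellular channel protein, was higher by 2.70 ± 0.35 over macrophages and by 6.50 ± 0.49 over dendritic cells, and Clcn5, an endosomal exchanger, fell by 0.77 in osteoclasts relative to macrophages, by the authors' deposited table. Of 9 other bicarbonate and anion exchangers, 3 were higher and 1 lower over macrophages, by the authors' deposited table. Slc4a7 rose by 1.34 ± 0.18 and Slc4a8 by 3.57 ± 0.42 in osteoclasts relative to macrophages by the authors' deposited table. Slc26a11 was the lower one, with 280.0 in osteoclasts, 143 in dendritic cells and 1270.2 in macrophages by the authors' deposited table. Of 9 other sodium proton exchangers, 3 were higher and 2 lower, with Slc9b1 at 2.28 ± 0.51 and Slc9a9 at -2.99 ± 0.46, by the authors' deposited table.

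Of 28 sorting nexins other than Snx10, 0 were higher and 11 lower in osteoclasts than in macrophages, where 14.5% of all genes were higher and 14.7% lower, with a median of -0.23 (log2), by the authors' deposited table. Snx24 fell by 1.76 and Snx30 fell by 0.99 in osteoclasts relative to macrophages by the authors' deposited table. Against dendritic cells 4 were higher and 9 lower in osteoclasts by the authors' deposited table, a balance that turned to 10 higher and 4 lower with the summed means set equal. Of 31 other genes of lysosome movement and fusion, 4 were higher and 13 lower in osteoclasts than in macrophages, with a median of -0.24, by the authors' deposited table; the count of higher genes is near the 14.5% of all genes. Rab38, a small GTPase of lysosome-related organelles, was higher by 4.86 ± 0.32, and Rab27a, another such GTPase, fell by 1.58 in osteoclasts relative to macrophages by the authors' deposited table. Syt7, a calcium sensor of lysosome exocytosis, had 7.5 in osteoclasts, 1862 in dendritic cells and 3.65 in macrophages by the authors' deposited table. Against dendritic cells 8 of 32 lysosome genes were higher and 10 lower by the authors' deposited table, and 13 were higher and 7 lower with the summed means set equal.

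Other genes whose loss gives osteopetrosis, or that are central to osteoclast formation, had 7 of 17 called higher and 3 lower in osteoclasts than in macrophages, where 14.5% of all genes were higher and 14.7% lower, by the authors' deposited table. The higher ones included Tcirg1, the osteoclast subunit of the proton pump, at 1.01 (authors' adjusted p = 1.65e-07), the integrin subunit Itgb3 at 4.23 ± 0.30 and the kinase Src at 3.19 ± 0.31 by the authors' deposited table. Rasgrp2 fell by 3.60 and Csf1r, the M-CSF receptor, fell by 0.89 in osteoclasts relative to macrophages by the authors' deposited table. Of 18 transcription factors and co-regulators linked to osteoclast genes, 8 were higher and 5 lower over macrophages by the authors' deposited table. Nfatc1, the master factor induced by RANKL, was higher by 1.36 ± 0.20 and the coactivator Ppargc1b by 3.30 ± 0.28, while the repressor Irf8 fell by 1.79 in osteoclasts relative to macrophages, by the authors' deposited table. Mitf, which drives Ctsk and Acp5 in mice, had authors' means of 2661 in osteoclasts, 2602 in dendritic cells and 2651 in macrophages, and none of its comparisons was called by the authors' deposited table. Tfec, a relative of Mitf, had 925 in osteoclasts, 3250.3 in dendritic cells and 541 in macrophages by the authors' deposited table.

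To see which genes had a like pattern, 10645 genes with an authors' mean of at least 100 in 1 or more cell types were compared. For each gene the log2(mean + 1) values of the 3 cell types were centred on their own mean, so level did not count. Genes were then ranked by distance between these centred values. Genes with Gm or Rik symbols or no symbol were left out, and the 9 were not ranked as neighbours of each other. With 3 points per gene the measure is a description of shape. Closest to Ctsk was Mmp9, a matrix protease, with a distance of 0.49 and authors' means of 121458 in osteoclasts, 2579 in dendritic cells and 309 in macrophages by the authors' deposited table. Closest to Acp5 was Mt3, a metallothionein, at 0.28, and closest to Car2 was Ocstamp at 0.18. Slc4a7 was 2nd closest to Slc4a2, at 0.03, with 8599 in osteoclasts, 2048 in dendritic cells and 3384 in macrophages by the authors' deposited table. Col4a6, a collagen chain, came closest to Slc9b2 at 0.35, Thrb to Clcn7 at 0.03, Nfx1 to Ostm1 at 0.01, Ankrd26 to Plekhm1 at 0.02 and Mybl2 to Snx10 at 0.05. Of the 36 pairs among the 9 genes, Clcn7 and Snx10 lay closest at 0.21, Ctsk and Acp5 were 1.28 apart, and Car2 and Slc9b2 farthest at 8.61.

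The nearest genes on the chromosome were set beside the 9. Both neighbours of Slc9b2 were also called higher in osteoclasts than in either other cell type, by the authors' deposited table. Bdh2, a dehydrogenase gene 3273 bases to the left, had authors' means of 624 in osteoclasts, 6.12 in dendritic cells and 104 in macrophages by the authors' deposited table. Its log2 fold changes were 2.49 over macrophages and 6.28 over dendritic cells (authors' adjusted p = 1.66e-07 and 9.09e-36) by the authors' deposited table. Slc9b1, a paralogue 2641 bases to the right, had 24.4 in osteoclasts, 2.55 in dendritic cells and 4.63 in macrophages, with fold changes of 2.28 and 3.03, by the authors' deposited table. All 3 genes lie on the same strand, and whether reads running on from a gene were counted in the next was not tested. For Ctsk the neighbour on the right is another cathepsin gene, Ctss, 17423 bases away, with 61647 in osteoclasts, 118876 in dendritic cells and 61633 in macrophages by the authors' deposited table. Arnt, 2015 bases to the left of Ctsk, had a log2 fold change of -0.40 over macrophages by the authors' deposited table. Next to Acp5, Elof1 stood at 0.38 (authors' adjusted p = 0.0116) and Pigyl at 0.36 (authors' adjusted p = 0.252) over macrophages by the authors' deposited table.

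**Figure D5:**
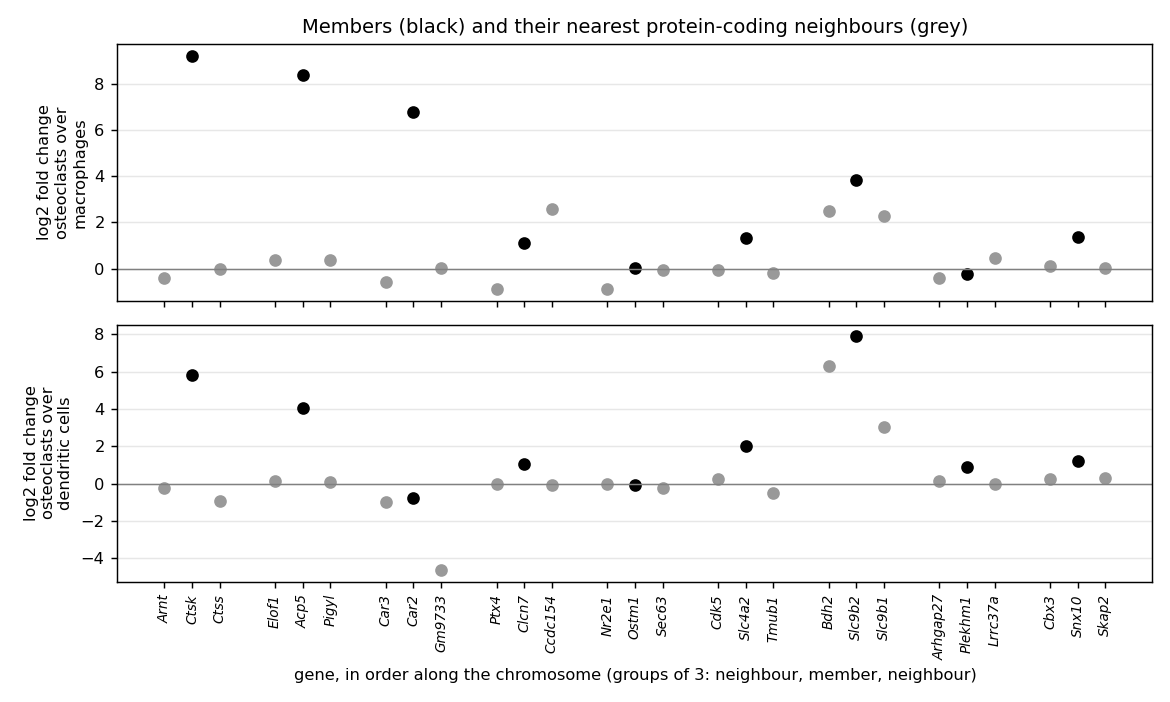
Log2 fold change of osteoclasts over macrophages (top) and over dendritic cells (bottom) for each of the 9 genes (black) and its nearest protein-coding gene on each side (grey), in order along the chromosome. Slc9b2 at 3.84 and 7.89 stands between Bdh2 at 2.49 and 6.28 and Slc9b1 at 2.28 and 3.03; Car3, Ptx4, Nr2e1, Lrrc37a, Gm9733 and Ccdc154 have authors' means of at most 39.3.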

How the data were processed

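The 12 libraries were read as single reads of 50 bases after a stranded mRNA preparation, as the labels' protocols state. The submitters' processing notes name bcl2fastq, Bowtie2, TopHat2, Cufflinks 2.1.1, DESeq2 2.13 and GRCm38; their roles, the annotation and the strand setting are not stated there. The deposited table holds, per the file headers, signal values (mean normalised counts of 4 libraries) for both cell types of a comparison. It also holds the authors' log2 fold change and the authors' raw and adjusted p-value for each gene. It has no column per library, so the calls are the authors' own and no count test was run. Where separate cultures are not proven, p-values measure the spread between these samples.

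Fold changes of the 3 comparisons add up to within 0.0416 over 26117 genes. The implied standard error is the fold change over the normal quantile of its p-value, taken as two-sided (an inference). Dendritic cells over macrophages is the authors' comparison with its sign turned round. Symbols, lengths and coordinates are from GENCODE M21 on GRCm38: 45138 identifiers matched and 934 did not, nor did the symbols Acp3 and Vamp7. TPM values were computed here from the authors' means and the union of exons.

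Because the means are whole numbers divided by size factors, reads per library were solved where exactly 1 solution exists (means up to 2000 for the 9 genes, 500 for lists). Size factors came out from 0.975 to 1.04, so the whole numbers may be counts scaled before, and depth per library is unknown. Tested on simulated data at a mean of 800, 9 of 10 osteoclast genes, 10 of 10 dendritic cell genes and 10 of 10 macrophage genes had 1 solution. At 1500 it was 1, 2 and 0 of 10 in the same order, and 0 solved genes were wrong. So few were solved at 1500 that the trial says little there. The dendritic cell means of Ctsk at 1472 and Car2 at 1403 lie near that mean. The simulated reads used the same size factors as the solving, so this trial cannot show errors in those factors. Among real genes with means of 100 to 300, 40 of 40 drawn in each cell type had 1 solution. Real genes with higher means were not drawn for that check.

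The 9 genes and all lists were chosen with earlier results of these data known. Named from each list are at most 2 called genes per direction with the smallest p and the gene with the highest level per length; for likeness, the closest genes. The neighbours, Oscar, Alpl, Bglap, Calcr, Cd163, Col1a1, Col1a2, Dcstamp, H2-Ab1, Mitf and Tcirg1 were named after their values were seen. Some genes that this rule names are not reported here. Alternatives were another adjustment, threshold and low filter, 3 scalings, the ratio of means, leaving out libraries and another gene length. Python 3.11.15 with numpy 2.4.6, pandas 2.3.3 and scipy 1.17.1 was used.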

Additional observations from a re-analysis of the deposited data

Results flagged for a closer look

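Car2 in osteoclasts was the single value that stood apart. Osteoclast library c held 1318 normalised reads, and the other 3 held 700.3, 679 and 575. Its gap to the nearest library was 0.832 of the whole range, past Dixon's 95% critical value for 4 libraries. Of the 9 gene and cell type pairs examined it was the 1 past that value, and chance flags about 1 in 20 groups.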

How the results depend on the processing

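Of 189 alternative values of the 27 log2 fold changes, 181 counted as the same. For values with an adjusted p this means that direction and side of the threshold were kept. The 27 ratios of means have no p-value, and all kept their sign and lay within the implied standard error. For Ctsk over macrophages, whose p is listed as 0, that error rests on a floor set for p. With totals made equal, 4 that were not called changed sign: Ostm1 in osteoclasts over dendritic cells (0.12), and Clcn7 (-0.069), Ostm1 (-0.025) and Snx10 (-0.0021) in dendritic cells over macrophages; each follows from the shift of that scaling. The call of Car2 as lower in osteoclasts than in dendritic cells was lost in 4 settings, so that 0 of the 9 genes were lower: adjustment over all genes with a p-value (adjusted p = 0.0535), a threshold of 0.01, totals made equal (0.145) and upper-quartile scaling (0.0552); over all alternatives its adjusted p ran from 0.0277 to 0.145. Counts of higher and lower genes among the 9 were otherwise the same under every alternative run. Another gene length moved levels per length to between 0.777 and 1.54 times their value. Leaving out each library in turn moved the solved means to between 0.699 and 1.33 times, with Car2 in osteoclasts from 651 to 899. No paired analysis was possible because the table has no column per library, and solved libraries carry no replicate number. Means above 2000 have no spread between libraries here.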

Other observations

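The solved macrophage libraries did not look alike in the summed neutrophil and dendritic cell marker lists. Neutrophil markers summed to 32.6, 150.0, 49.7 and 136 normalised reads in libraries a to d. Dendritic cell markers summed to 740, 221, 1253 and 199.5 in the same libraries. Libraries b and d were thus high in the first list and low in the second. Most of each dendritic cell marker sum was H2-Ab1, with 591, 142, 1097 and 121. Ccl17 did not follow the split, with 69.0, 63.3, 63.3 and 63.9. Ctsk in these libraries held 132, 140, 131 and 146 normalised reads, and Slc9b2 203, 227, 333 and 212. These splits were seen after the values were known and were not tested.

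In osteoclast libraries a to d the macrophage markers that could be solved, Cd163 and Fcgr1, summed to 65.6, 72.5, 185 and 262 normalised reads. Runx2, a transcription factor of bone-forming cells, held 470, 545, 248 and 247. It was not particular to osteoclasts, with authors' means of 378 there, 1008 in dendritic cells and 320 in macrophages by the authors' deposited table. In the same osteoclast libraries Col1a1 held 0, 0, 0 and 2.02 and Col1a2 held 0, 0, 5.01 and 5.04, while Alpl and Bglap were listed at 0.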
